A study of Mus musculus with 18 samples.

Results

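Chemokines are small secreted proteins that draw leukocytes along a concentration gradient, and their receptors are G protein-coupled receptors on leukocytes, glia and some neurons. In the dorsal root ganglion (DRG), which holds the cell bodies of primary sensory neurons together with satellite glia, Schwann cells, fibroblasts, vessels and resident macrophages, several of these ligand and receptor pairs are known for their part in pain after nerve or tissue injury. The genes described here are the 57 of the 36737 genes in the deposited table whose symbol names a chemokine ligand (Ccl, Cxcl, Cx3cl1, Xcl1) or a chemokine receptor (Ccr, Cxcr, Cx3cr1, Xcr1). Membership follows from the symbol alone. They comprise 39 ligands (24 Ccl, 13 Cxcl, Cx3cl1 and Xcl1) and 18 receptors (10 Ccr, 6 Cxcr, Cx3cr1 and Xcr1).

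The libraries came from the L3–L5 ganglia of outbred CD1 mice, 1 library a mouse, in 3 groups of 3 males and 3 females. Sham mice had sham surgery, Fracture mice had tibial fracture surgery with vehicle, and Fracture+PDX mice had tibial fracture surgery with protectin DX (PDX), a lipid mediator made from docosahexaenoic acid. The ganglia of both fracture groups were taken on day 3 after surgery. The day for the Sham group and the PDX dose of these mice are not given in the labels. The study used adult mice, and its labels name no deleted gene or transgene in any group.

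Each library held between 63235040 and 82824942 counts assigned to genes, and the group medians were 77103962 (Sham), 78228348.5 (Fracture) and 73802057.5 (Fracture+PDX). All 12 markers of sensory neurons were detected in every library. Their summed level was 21689 to 23639.5 CPM (counts scaled to a common library size) in Sham. It was 23951.8 to 25517.1 CPM in Fracture and 23274.7 to 26520.3 CPM in Fracture+PDX. All 12 had a log2 fold change above 0 in each fracture group against Sham. At an adjusted p under 0.05 (edgeR), 5 were higher in Fracture and 3 in Fracture+PDX, against 1.09% and 2.17% of all genes tested. Markers of tissue that is not ganglion were also present and varied between libraries. The summed level of 10 skeletal muscle markers ranged from 15.6 to 1430 CPM, that of 10 red blood cell markers from 503 to 2917 CPM, and that of 10 placenta genes from 181 to 582 CPM in Sham against 27.7 to 279 CPM in the other libraries. The part of these tissues, or of the neuronal share, in any result was not tested. In whole ganglia, fewer cells of a type and less RNA per cell cannot be told apart.

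The family names come from the spacing of the first pair of cysteines of the mature protein, and the coding sequences around it are given for some ligands. Below, capitals mark the cysteine codons, which were located by searching for the spacing of each family name. They are adjacent in CC ligands, 1 codon apart in CXC ligands and 3 codons apart in the CX3C ligand. The sequences are from GENCODE M21 transcripts on GRCm38, the build of the deposited coordinates, and are written 5′ to 3′ in the direction of the gene. Ccl11 (chr11:82061687-82061710, plus strand), Ccl6 (chr11:83589377-83589400, minus strand), Cxcl14 (chr13:56295906-56296110, minus strand, across an intron), Cxcl12 (chr6:117171499-117171525, plus strand) and Cx3cl1 (chr8:94778042-94778074, plus strand) are shown first, followed by Ccl21a (chr4:42773726-42773749, minus strand), Ccl21b (chr4:42255936-42255959, plus strand) and Ccl21d (chr4:41903854-41903877, plus strand), related copies that share sequence.
Ccl11: ccaacttccTGCTGCtttatcatg
Ccl6: tcttcagacTGCTGCttctcttat
Cxcl14: gggtccaagTGTaagTGTtcccggaag
Cxcl12: agctaccgaTGCcccTGCcggttcttc
Cx3cl1: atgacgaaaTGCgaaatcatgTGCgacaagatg
Ccl21a: ggtcaggacTGCTGCcttaagtac
Ccl21b: ggacaggacTGCTGCcttaagtac
Ccl21d: ggacaggacTGCTGCcttaagtac

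The stretches of Ccl21b and Ccl21d are the same letter for letter. Of all 75-base words in their transcripts, 100% of those of Ccl21b and of Ccl21d and 61.3% of those of Ccl21a also occur in another gene. The share is 98.0% for Ccl27b, 45.3% for Ccl19 and 33.3% for Ccl27a. The levels of these genes are therefore uncertain, since the counting could divide shared reads between copies.

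Most of the family was present at a low level in the ganglion. Levels between genes are compared in FPKM (fragments scaled to exon length and library size), as the authors deposited it, by the median over the 18 libraries. No member reached 10 FPKM. There were 12 members between 1 and 10 FPKM, 24 between 0.1 and 1 FPKM, 13 below 0.1 FPKM, and 8 at the floor of detection, with 3 or fewer counts in most libraries. Of the 12 in the highest class, 11 were ligands and 1 was a receptor.

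The highest ligand was Ccl11, an eosinophil attractant also known as eotaxin, at a median of 8.19 FPKM with a range from 6.90 to 13.5 FPKM, which is above the median of 85.3% of all genes in the table. Ccl21a followed at 5.48 FPKM and Cxcl12 at 5.25 FPKM. The range of Ccl21a, from 2.48 to 9.38 FPKM, overlapped those of both others, while that of Cxcl12, from 4.29 to 6.35 FPKM, lay wholly below that of Ccl11. Ccl27a was next at 3.15 FPKM and Ccl6 at 2.09 FPKM. Cxcl14 (1.83 FPKM), Cx3cl1 (1.72 FPKM), Cxcl16 (1.64 FPKM), Ccl27b (1.51 FPKM), Cxcl10 (1.1 FPKM) and Ccl2 (1.03 FPKM) completed the class, and each gene from Cxcl12 down overlapped the next in its range. FPKM here is per merged exon length, so genes with long merged exons such as Cxcl12 and Ccl25 read lower than they would per transcript.

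Cxcr4, the receptor for Cxcl12, stood apart from the other receptors. Its median was 6.06 FPKM and its lowest library was at 4.60 FPKM, above the highest library of every other receptor. Ccr10 (0.795 FPKM), Cxcr2 and Cx3cr1 (both 0.770 FPKM), Ccr2 (0.660 FPKM) and Ccr1 (0.455 FPKM) came next with overlapping ranges, and Cxcr6 was at 0.105 FPKM. The receptors below 0.1 FPKM were Ccr3, Ccr6, Ccr7, Ccr9, Cxcr3, Cxcr5 and Xcr1, and those at the floor were Ccr4, Ccr8 and Cxcr1. The ligands at the floor were Ccl17, Ccl20, Ccl26, Cxcl17 and Xcl1, and the ligands above the floor but below 0.1 FPKM were Ccl22, Ccl4, Cxcl13, Cxcl2, Cxcl3 and Cxcl9. Ccl20, the ligand of Ccr6, had a count above 3 in 1 library only, with 6 counts there, and Ccr8 in 1 library only, with 4 counts.

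**Figure D1:**
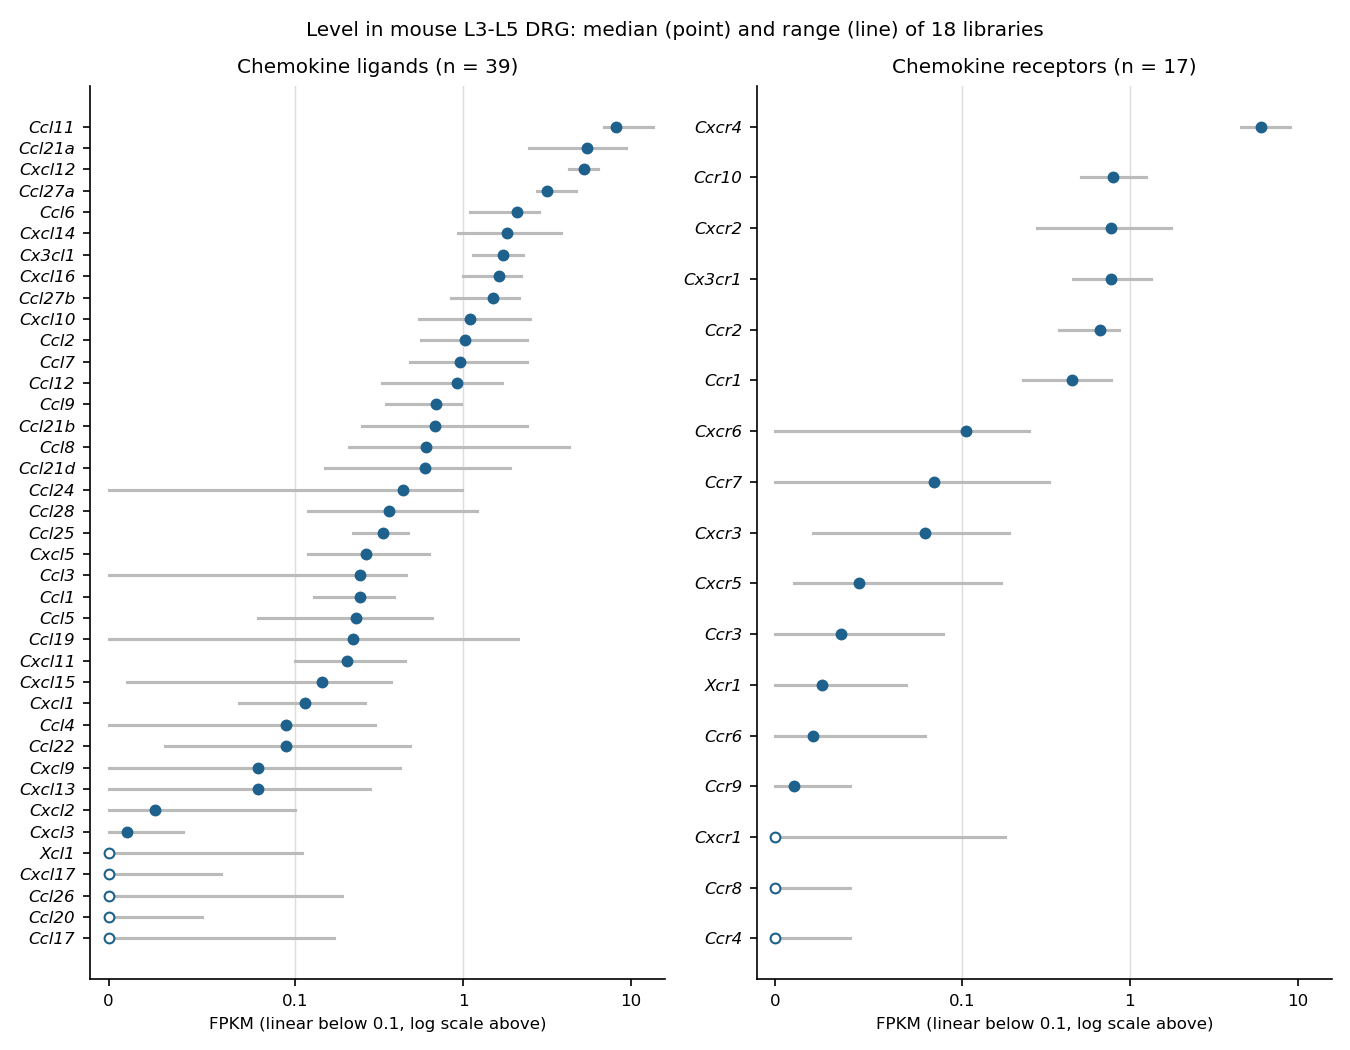
Levels of 39 chemokine ligands and 17 receptors in FPKM (linear below 0.1, log scale above). Points are medians and lines the range over the 18 libraries, and open points are members at the floor of 3 or fewer counts in most libraries. Ccl11 leads the ligands at 8.19 FPKM, and Cxcr4 at 6.06 FPKM lies above every other receptor drawn.

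The known pairs of ligand and receptor differed in which side was present. Both sides of the Cxcl12 and Cxcr4 pair were in the class from 1 to 10 FPKM. For Ccl11 and its receptor Ccr3, the ligand was the highest of the family in FPKM. The receptor was at a median of 0.035 FPKM, with 26 counts at most in a library. In CPM, which is not scaled to exon length, Cxcl12 was above Ccl11 (Sham medians of 46.0 and 13.96 CPM). Ccl21a was likewise above its receptor Ccr7 (0.085 FPKM). For Cxcl16 and Cxcr6, and for Cxcl10 and Cxcr3 (0.080 FPKM), the ligand was also the higher side. Among the members, the reverse held for Cxcr2. Its ligands Cxcl1 (0.115 FPKM), Cxcl2 (0.025 FPKM), Cxcl3 (0.010 FPKM) and Cxcl5 (0.265 FPKM) were all lower than the receptor in their medians. Ppbp, a further source of Cxcr2 ligand whose symbol is outside the rule, is not in this comparison and is given below. For Ccr4, Ccl22 was at 0.095 FPKM while Ccl17 and the receptor itself were at the floor.

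Of the 57 members, 40 lay in 11 clusters of genes less than 200000 bases apart, and 17 lay alone. The largest ligand cluster, chr11:82035571-82305690, held Ccl2, Ccl7, Ccl11, Ccl12, Ccl8 and Ccl1. A further cluster on chromosome 11 held Ccl5, Ccl9, Ccl6, Ccl3 and Ccl4, and the largest receptor cluster, on chromosome 9, included Ccr9, Cxcr6, Xcr1, Ccr1, Ccr3 and Ccr2. Levels were not alike within a cluster. Next to Ccl11 at 8.19 FPKM, its neighbours Ccl2, Ccl7, Ccl12, Ccl8 and Ccl1 had medians between 0.245 and 1.03 FPKM.

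The comparison of Fracture with Sham asked which members differed in the ganglia on day 3 after fracture. In Fracture, 2 members fell and 0 rose. Cxcr2, a receptor of neutrophil attractants, fell by 1.25 on the log2 scale, and Ccl11 fell by 0.47. Of the 44 members that passed the filter on low counts, 2 were called lower. A call here means an adjusted p under 0.05, from the quasi-likelihood test of edgeR with Benjamini-Hochberg adjustment over every gene tested. Over all 20659 genes tested, 1.09% were called higher and 1.83% lower. The other 13 members, with too few counts for the filter, were not tested. At an unadjusted p-value under 0.05 there were 5 members (11.4% of 44), against 18.5% of all genes tested. The median log2 fold change of the 44 members was -0.11, with 14 above 0 and 30 below, beside 0.0021 over all genes tested. The filter keeps a gene by its counts in either group, so these 44 are the better detected members and not the whole family.

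Cxcr2 lay between 2.66 and 5.75 CPM in Sham with a median of 3.33 CPM, between 1.35 and 2.56 CPM in Fracture with a median of 1.49 CPM, and between 0.944 and 5.80 CPM in Fracture+PDX with a median of 2.61 CPM. Every Fracture library was below every Sham library, while the Fracture+PDX libraries spread across the range of both groups. The means were 3.88 ± 1.37 CPM in Sham and 1.64 ± 0.455 CPM in Fracture (SD, n = 6 mice each). The log2 fold change was -1.25 (SE 0.24, adjusted p = 0.0171, edgeR), and the exact permutation test, two-sided and on log2 CPM, gave an unadjusted p of 0.0022, the smallest that 6 against 6 mice allow. The call held without any 1 of the 12 libraries, with log2 fold changes from -1.41 to -1.08. It was lost in a fit of all 18 libraries together (adjusted p = 0.0713), in which the Fracture+PDX libraries also enter the spread, and in both fits of FPKM (adjusted p = 0.0960 and 0.0544, limma).

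Cxcr2 moved together with markers of neutrophils, the cells in which it is best known. The summed level of 14 neutrophil markers, among them S100a8, S100a9, Camp, Ngp and Ltf, lay between 97.9 and 424 CPM in Sham, between 106 and 220 CPM in Fracture and between 94.6 and 537 CPM in Fracture+PDX. All 14 had a log2 fold change below 0 between Fracture and Sham, with a median of -0.78, and 0 of 14 were called. Between Fracture+PDX and Fracture all 14 were above 0, with a median of 1.09, and again 0 were called. Only Ly6g among them was at 0 counts in some library. Across the 18 libraries, as deviations from the group means, Cxcr2 and the summed markers correlated with Pearson's r = 0.88 and Spearman's rho = 0.87 (permutation p = 6e-05 and 0.0003, adjusted over 4 such relations 0.00024 and 0.0012). Leaving out the 2 libraries whose marker sums were most extreme gave r = 0.86. Cxcr2 is not itself in the marker list. The directions were not particular to neutrophil markers. All 10 red blood cell markers were below 0 in Fracture against Sham (median -0.77) and above 0 in Fracture+PDX against Fracture (median 0.51). The 10 B-cell and B-cell precursor markers did the same (medians -0.94 and 0.52). Correlations of Cxcr2 with these further lists were not tested. The 4 relations tested were chosen after the values had been seen. The part of neutrophil, red cell or B-cell content in the difference between groups was not tested.

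**Figure D2:**
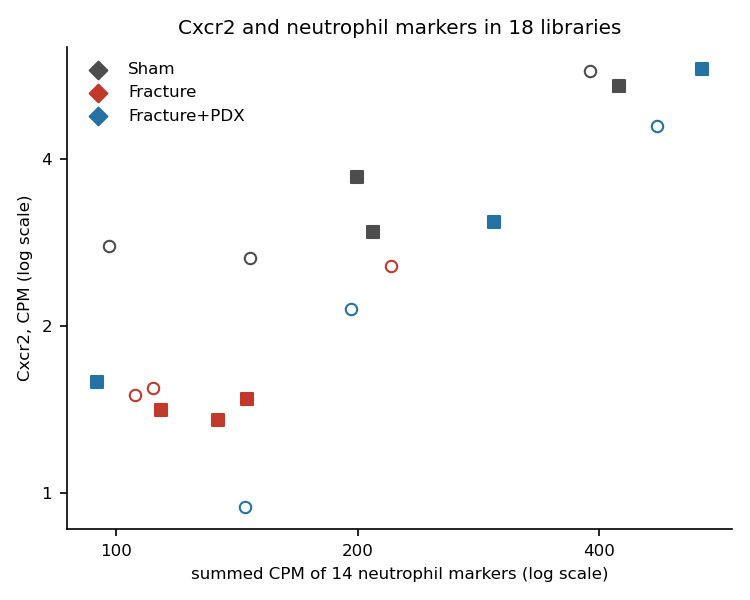
Cxcr2 in CPM against the summed CPM of 14 neutrophil markers in each of the 18 libraries, both on log scales. Squares are males and open circles females, coloured by group. The 4 libraries with the highest marker sums, 2 Sham and 2 Fracture+PDX from 389 to 537 CPM, hold 4.58 to 5.80 CPM of Cxcr2, and 5 of the 6 Fracture libraries sit at the lower left, at or below 1.55 CPM of Cxcr2. Sham female 2 has a marker sum of 97.9 CPM, below every Fracture library, and 2.78 CPM of Cxcr2, above every Fracture library.

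Of the ligands of Cxcr2, Cxcl1 and Cxcl5 were tested and not called, and neither was the platelet ligand Ppbp, whose values are given with the genes outside the symbol rule. Cxcl1 ranged from 0.140 to 0.544 CPM over the Sham mice, from 0.200 to 0.476 CPM over the Fracture mice and from 0.162 to 0.365 CPM over the Fracture+PDX mice. Cxcl5 had means of 0.548 ± 0.211, 0.669 ± 0.329 and 0.702 ± 0.214 CPM in the same order (SD, n = 6). The groups overlapped for both. Cxcl2 and Cxcl3 did not pass the filter, with 18 and 11 counts at most in a library. Cxcr1, which lies beside Cxcr2 on chromosome 1, was at the floor.

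Ccl11 lay between 11.04 and 15.7 CPM in Sham with a median of 13.96 CPM, between 8.67 and 11.96 CPM in Fracture with a median of 9.26 CPM, and between 8.22 and 9.99 CPM in Fracture+PDX with a median of 9.32 CPM. Of the Fracture libraries, 4 of 6 were below every Sham library, and all 6 of Fracture+PDX were. Between Fracture and Sham it differed by -0.47 on the log2 scale (SE 0.11, adjusted p = 0.0329, edgeR), a level 27.6% lower, with an unadjusted p of 0.0087 in the exact permutation test. This call was not stable to single libraries. It was lost when any 1 of 8 libraries was left out (Sham male 2, male 3, female 1 or female 2, Fracture male 1, male 3, female 2 or female 3), with adjusted p-values up to 0.0840, while the log2 fold change stayed between -0.53 and -0.42. The call was also lost with the mouse number as a replicate block (adjusted p = 0.0539, edgeR) and in both fits of FPKM (adjusted p = 0.106 and 0.0816, limma). Females and males had nearly the same difference, -0.46 and -0.48.

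Ccl11 was lower in both fracture groups, so it also separated Fracture+PDX from Sham. There the means were 13.7 ± 1.82 CPM in Sham and 9.27 ± 0.691 CPM in Fracture+PDX (SD, n = 6), with a log2 fold change of -0.56 (SE 0.092, adjusted p = 0.00522, edgeR). The groups did not overlap, and the call held without any 1 of the libraries, with adjusted p-values from 0.00315 to 0.0158, and under every other alternative. Between Fracture+PDX and Fracture the difference was -0.09 with a 95% interval from -0.29 to 0.10. The comparisons share libraries and are not independent of one another.

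Fibroblasts produce eotaxin in many tissues. The summed level of 8 fibroblast markers lay between 1765 and 2334 CPM in Sham, between 1645 and 1893 CPM in Fracture and between 1551 and 2239 CPM in Fracture+PDX, so the groups overlapped. All 8 had a log2 fold change below 0 in Fracture against Sham, and 1 of them, Dcn, was called (-0.33, adjusted p = 0.0331). None of the 8 was called in Fracture+PDX against Sham, where the median was -0.18. The correlation of Ccl11 with the fibroblast sum, as deviations from the group means over 18 libraries, was r = 0.50 and rho = 0.59 (permutation p = 0.0324 and 0.0146, adjusted over 4 relations 0.0648 and 0.0293), and r was 0.64 without the 2 farthest libraries. For Cxcl14 and the same sum, r was -0.058 and rho 0.015 (permutation p = 0.807 and 0.953, adjusted over 4 relations 0.807 and 0.953), and r was -0.19 without those libraries. The summed level of 10 endothelial markers was 193 to 236 CPM in Sham, 172 to 194 CPM in Fracture and 164 to 192 CPM in Fracture+PDX. In Fracture against Sham, 8 were below 0 and 2 above with a median of -0.13, and the calls were Cdh5 and Flt1 (-0.73 and -0.71). In Fracture+PDX against Sham, 3 of 10 were called lower, with a median of -0.16. No marker of either list was at 0 in any library. The part of these cells in the Ccl11 result was not tested.

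Ccl11's neighbours on chromosome 11 had wider spreads and were not called. Ccl2 and Ccl7, monocyte attractants that act through Ccr2, had log2 fold changes between Fracture and Sham of -0.36 (SE 0.28) and -0.54 (SE 0.28). Ccl12 and Ccl8 were at 0.21 (SE 0.29) and 0.22 (SE 0.46), and Ccl1 at -0.23 (SE 0.28). All adjusted p-values of these genes were at least 0.328. Ccl24, another ligand of Ccr3, was at -0.23 (SE 0.46) and ranged from 0 to 1.43 CPM over the 18 libraries.

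Cxcl14, a CXC ligand whose receptor is not settled, and Ccl6, a mouse CC ligand made by myeloid cells and known to act through Ccr1, were next in order of p-value and did not pass the threshold. Cxcl14 lay between 3.67 and 7.73 CPM in Sham with a median of 4.33 CPM, between 1.89 and 4.35 CPM in Fracture with a median of 2.52 CPM, and between 3.16 and 4.89 CPM in Fracture+PDX with a median of 3.68 CPM. In Fracture, 5 of 6 libraries were below every Sham library. Its log2 fold change was -0.81 (SE 0.21, adjusted p = 0.0549, edgeR) and the exact permutation p 0.0108, unadjusted. Sham male 1 at 7.73 CPM stood above the other Sham libraries, and without it the log2 fold change was -0.66 (adjusted p = 0.0967). Without Fracture male 1 the gene was called (adjusted p = 0.0436).

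Ccl6 lay between 4.24 and 5.62 CPM in Sham with a median of 4.77 CPM, between 2.67 and 4.22 CPM in Fracture with a median of 3.54 CPM, and between 2.25 and 5.60 CPM in Fracture+PDX with a median of 4.17 CPM. Every Fracture library was below every Sham library, the nearest by a small margin. Its difference on the log2 scale was -0.46 (SE 0.13, adjusted p = 0.0836, edgeR), with an unadjusted exact permutation p of 0.0022. Ccl9, which lies beside Ccl6 and shares its receptor Ccr1, had means of 2.53 ± 0.303 CPM in Sham and 2.02 ± 0.395 CPM in Fracture (SD, n = 6; log2 fold change -0.32, adjusted p = 0.250, edgeR). DESeq2 called Ccl6 and Cxcl14 as well as Ccl11 and Cxcr2 (adjusted p = 0.0214 and 0.00395 for the first pair).

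Macrophage markers, whose cells express Ccr1, Ccr2 and Cx3cr1, had a summed level of 128 to 151 CPM in Sham, 97.2 to 133 CPM in Fracture and 97.1 to 136 CPM in Fracture+PDX. All 14 had log2 fold changes below 0 between Fracture and Sham, and Csf1r (-0.47, adjusted p = 0.00733) and Adgre1 (-0.56, adjusted p = 0.0139) were called. Of the members these cells express, Ccr1, Ccr2 and Cx3cr1 were not. Ccr2 was at -0.07 (SE 0.21), Cx3cr1 at -0.02 (SE 0.19) and Ccr1 at -0.44 (SE 0.28).

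**Figure D3:**
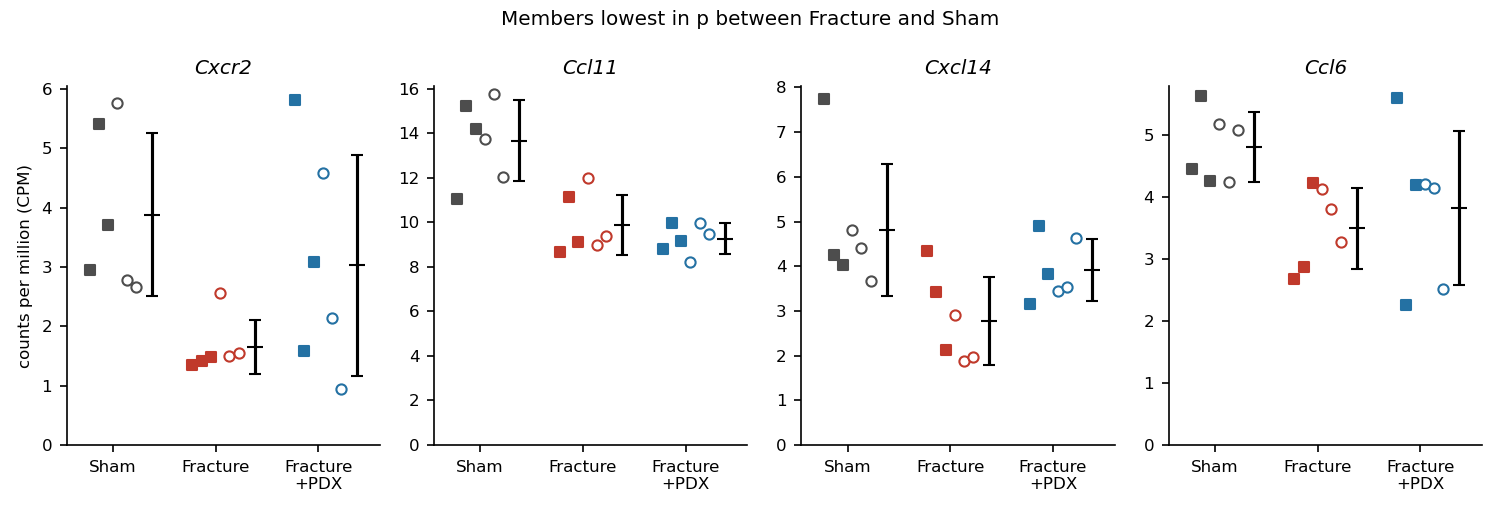
CPM of Cxcr2, Ccl11, Cxcl14 and Ccl6 in each mouse (squares males, open circles females), with the mean ± SD of each group of 6. For Cxcr2 and Ccl6 every Fracture mouse is below every Sham mouse, and for Ccl11 every Fracture+PDX mouse is below every Sham mouse.

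Apart from Ccl11, none of the 12 members between 1 and 10 FPKM was called in any comparison in the reported edgeR fits. Cxcl12, which guides and retains leukocytes and acts on neurons and glia, had means of 48.0 ± 6.83 CPM in Sham, 46.4 ± 5.79 CPM in Fracture and 50.8 ± 4.19 CPM in Fracture+PDX (SD, n = 6). The log2 fold change between Fracture and Sham was -0.04 with a 95% interval from -0.24 to 0.16. Its receptor Cxcr4 was at 12.4 ± 2.15, 13.1 ± 1.89 and 12.6 ± 2.80 CPM, with an interval from -0.14 to 0.30 for the same comparison. Cx3cl1, a membrane-bound ligand that acts on macrophages through Cx3cr1, was at 7.602 ± 1.13, 7.73 ± 0.827 and 7.39 ± 1.56 CPM, with an interval from -0.18 to 0.24. These 3 intervals leave out -0.47, the difference of Ccl11, while those of Ccl21a (-0.48 to 0.39), Cxcl16 (-0.62 to 0.13), Cxcl10 (-0.67 to 0.36) and Ccl2 (-0.96 to 0.23) include it. Ccl27a (8.31 ± 0.570, 9.18 ± 1.68 and 8.22 ± 0.657 CPM) and Ccl21a (6.10 ± 1.48, 5.87 ± 1.77 and 5.08 ± 1.64 CPM) were not called either. The receptors of these ligands, Ccr10 for Ccl27a and Ccr7 for Ccl21a, had log2 fold changes of 0.09 (SE 0.18) and -1.36 (SE 0.80), the latter on 56 counts at most in a library.

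The comparison of Fracture+PDX with Fracture asked which members differed with PDX after fracture. No member was called, and neither was any other gene. Of the 20562 genes tested, 0% were called higher and 0% lower in edgeR, and DESeq2 called 21 genes, none of them a member. At an unadjusted p-value under 0.05, 7 of the 44 members tested (15.9%) passed, against 5.41% of all genes (1113 genes), and all 7 were higher with PDX. They were Ccr9, Ccr1, Cxcl14, Ccl22, Cx3cr1, Cxcr2 and Ccl8. The smallest adjusted p of a member was 0.854. The median log2 fold change was 0.13 over the 44 members, 0.31 over the 14 receptors and 0.05 over the 30 ligands among them, beside -4.5e-05 over all genes tested.

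Ccr9, the receptor for Ccl25 on gut-homing lymphocytes, had the smallest p-value on very few reads. It lay between 0.0525 and 0.142 CPM in Fracture and between 0.162 and 0.529 CPM in Fracture+PDX, and the groups did not overlap. Sham spanned 0.0430 to 0.470 CPM, across both. The log2 fold change was 1.36 (SE 0.43, adjusted p = 0.854, edgeR) and the unadjusted exact permutation p was 0.0022. The counts behind it were 4 to 11 per library in Fracture and 12 to 34 in Fracture+PDX, and the gene overlaps others on both strands. Its ligand Ccl25 was at 2.75 ± 0.439 CPM in Fracture and 2.96 ± 0.558 CPM in Fracture+PDX (SD, n = 6).

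Ccr1, a receptor of Ccl3, Ccl5, Ccl6 and Ccl9 on myeloid cells, lay between 0.798 and 1.68 CPM in Fracture and between 1.27 and 2.42 CPM in Fracture+PDX, with medians of 1.02 and 1.66 CPM. Sham had a median of 1.67 CPM and a range from 0.714 to 2.25 CPM. The log2 fold change with PDX was 0.63 (SE 0.22, adjusted p = 0.887, edgeR). None of its ligands passed the test, with 0.13 (SE 0.21) for Ccl6, -0.00 (SE 0.18) for Ccl9, -0.11 (SE 0.56) for Ccl3 and -0.04 (SE 0.52) for Ccl5. The groups overlapped for each of them.

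Of the 4 members with the smallest p-values between Fracture and Sham, none was called with PDX, and differences between them were not tested. Ccl11 had about the same median in both fracture groups (9.26 and 9.32 CPM), and Ccl6 had a log2 fold change with PDX of 0.13 (SE 0.21). With 1 library left out, that of Ccl6 ran from -0.03 to 0.24, so its sign could turn. Cxcl14 had a log2 fold change with PDX of 0.52 (SE 0.20, adjusted p = 0.887) and Cxcr2 of 0.88 (SE 0.40, adjusted p = 0.912, edgeR). For Cxcr2, 3 Fracture+PDX libraries were above every Fracture library and 1 was below. Against Sham, Cxcl14 was at -0.29 (SE 0.18) and Cxcr2 at -0.37 (SE 0.41), and neither was called. With 1 library left out, Cxcl14 ran from -0.37 to -0.11 and Cxcr2 from -0.66 to -0.15. Since the Fracture libraries enter both comparisons, a low Fracture group gives opposite signs in them. Cxcr5, the receptor for Cxcl13 on B cells, was at 0.633 CPM in Fracture+PDX male 1 and between 0.0572 and 0.279 CPM in the other 17 libraries. In that library 10 B-cell markers summed to 14.6 CPM, the highest of its group, against up to 21.6 CPM in Sham.

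The library Fracture+PDX male 2 stood apart for several members. It had 6.38 CPM of Cxcl10 and 1.45 CPM of Cxcl9, both interferon-induced ligands of Cxcr3, against at most 3.54 and 0.533 CPM in the other 17 libraries. It was also the highest in Ccl8 (2.46 CPM against at most 1.25 CPM) and Cx3cr1 (6.72 CPM against at most 5.15 CPM). Cxcl11, the remaining ligand of Cxcr3, was 1.17 CPM there and reached 1.87 CPM in a Sham library.

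Leaving this library out lowered the PDX differences of these members. Ccl8 against Fracture went from 1.19 (SE 0.55) to 0.75 (SE 0.49), and Cxcl9 from 1.05 (SE 0.76) to 0.38 (SE 0.66). Cx3cr1 went from 0.37 (SE 0.16) to 0.23 (SE 0.14). The differences of Ccr9 (1.46), Ccr1 (0.69) and Cxcr2 (0.996) were larger without it, and none of these members was called either way.

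**Figure D4:**
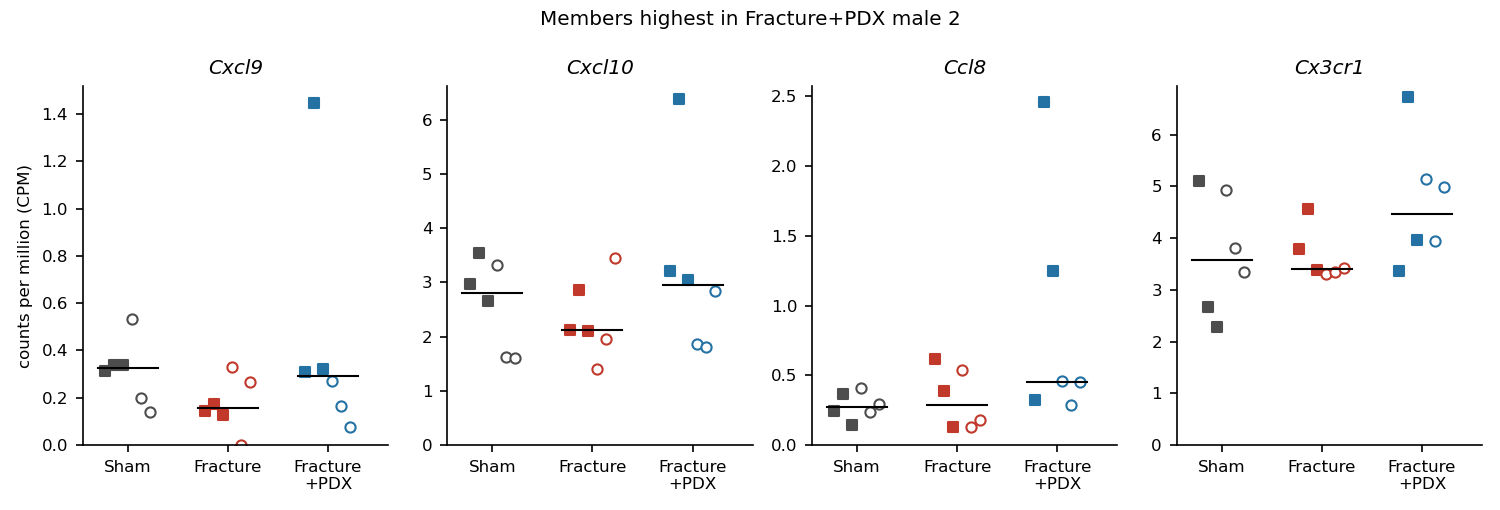
CPM of Cxcl9, Cxcl10, Ccl8 and Cx3cr1 in each mouse (squares males, open circles females), with black lines at the median of each group of 6. In every panel the highest point is Fracture+PDX male 2, at 1.45 CPM of Cxcl9 and 6.38 CPM of Cxcl10.

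In Fracture+PDX against Sham, 1 member, Ccl11, was called lower and 0 were called higher among 44 tested, while 2.32% of all 20574 genes were called lower and 2.17% higher. At an unadjusted p-value under 0.05 there were 2 members (4.55%), Ccl11 and Ccl8, against 18% of all genes. Ccl8, a CC ligand, had means of 0.281 ± 0.0951 CPM in Sham and 0.871 ± 0.854 CPM in Fracture+PDX (SD, n = 6), with a log2 fold change of 1.41 (SE 0.52, adjusted p = 0.166, edgeR). All 6 Fracture+PDX libraries were above the Sham median and 4 above every Sham library. Without male 2 it was 0.94 (adjusted p = 0.294). Ccl12, which binds Ccr2, was at 0.72 (SE 0.36, adjusted p = 0.318), with 5 of 6 Fracture+PDX libraries above every Sham library and 1 below. Ccr2 was at 0.23 (SE 0.16, adjusted p = 0.526) with means of 4.57 ± 1.11 CPM in Sham and 5.35 ± 0.742 CPM in Fracture+PDX (SD, n = 6).

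**Figure D5:**
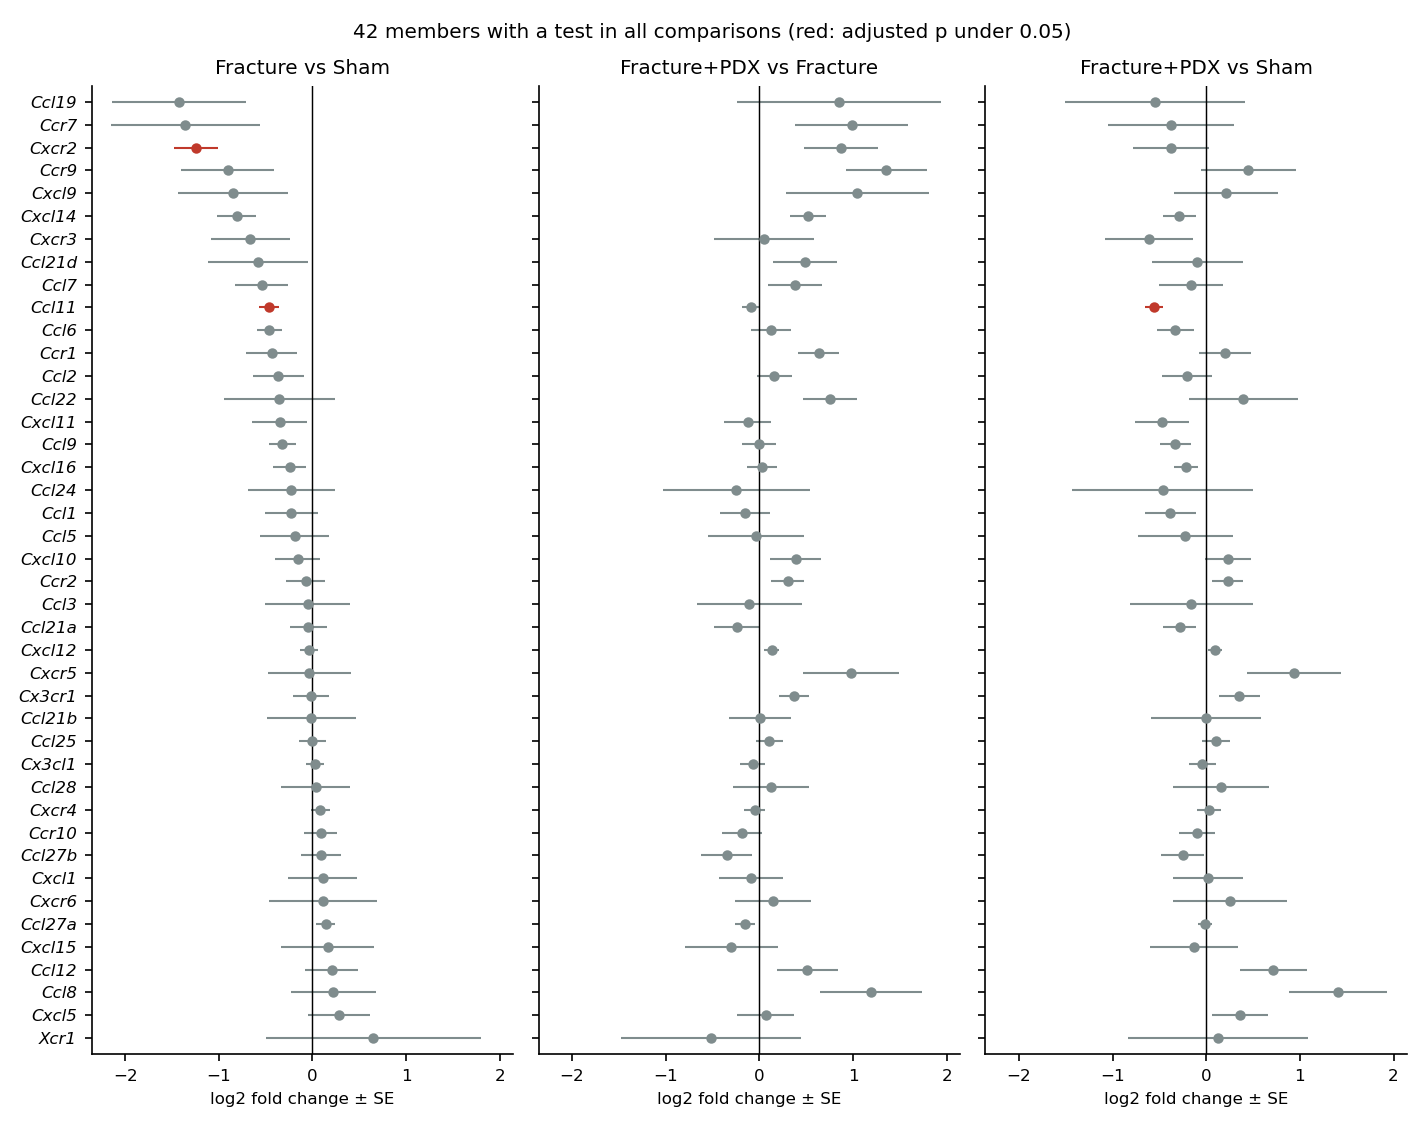
Log2 fold change ± SE of 42 members tested in all comparisons, ordered by Fracture against Sham, with those at an adjusted p-value under 0.05 in red. Red points are Cxcr2 and Ccl11 in Fracture against Sham and Ccl11 in Fracture+PDX against Sham, and there is none in Fracture+PDX against Fracture.

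The sexes were compared by the interaction of sex and group, and 0 of 44 members were called in either comparison in edgeR (lowest adjusted p = 0.652 for Fracture against Sham and 0.998 for Fracture+PDX against Fracture). Over all genes tested, 0% and 0.00486% were called. At an unadjusted p under 0.05 there was 1 of 44 members in each, Ccl22 and Ccl19 in this order, against 7.2% and 4.14% of all genes, so the members' share was below that of all genes. For Cxcr2 the difference between Fracture and Sham was -1.44 in males and -0.94 in females.

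Genes outside the symbol rule were taken from lists chosen with earlier results of these data known. Of 5 atypical and decoy receptors, 2 were called lower in Fracture against Sham. Over all genes tested, 1.83% were called lower and 1.09% higher in that comparison. In Fracture+PDX against Sham these shares were 2.32% and 2.17%. Ackr3, an atypical receptor that takes up Cxcl12 without classical signalling, fell by 0.57 on the log2 scale between Fracture and Sham, from 14.4 ± 2.29 to 9.68 ± 0.665 CPM (SD, n = 6; adjusted p = 0.00733, edgeR). Ccrl2, a receptor that presents the attractant chemerin, fell by 0.90, from 2.04 ± 0.340 to 1.08 ± 0.251 CPM (adjusted p = 0.0148). The other 3 of the 5 atypical and decoy receptors tested were not called in this comparison. In Fracture+PDX against Sham, Ccrl2 was again lower (-0.70, adjusted p = 0.0274), Ackr3 was at -0.50 (adjusted p = 0.0918), and Ackr1, a scavenger of many chemokines on vessels and red cells, was higher (0.30, adjusted p = 0.0423). None of the 5 was called between Fracture+PDX and Fracture.

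Of the 7 genes for attractants outside the family and their receptors, Cmklr1, the chemerin receptor, fell by 0.59 between Fracture and Sham (adjusted p = 0.0465). In Fracture+PDX against Sham, Cmklr1 was at -0.78 (adjusted p = 0.0326) and Rarres2, which encodes chemerin, at -0.37 (adjusted p = 0.0173). Of 21 genes that signal below chemokine receptors, only Arrb1, which encodes a β-arrestin, was called, higher by 0.13 in Fracture (adjusted p = 0.0484) and by 0.17 in Fracture+PDX (adjusted p = 0.00993), both against Sham. Of 7 genes for enzymes that cleave chemokines, Mmp2 was called lower in Fracture (-0.32, adjusted p = 0.0295).

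The platelet chemokines Pf4 and Ppbp, the latter a source of Cxcr2 ligand, have symbols outside the rule and were not called. Ppbp had means of 2.05 ± 1.201 CPM in Sham, 1.67 ± 1.41 CPM in Fracture and 6.84 ± 5.70 CPM in Fracture+PDX (SD, n = 6), with a log2 fold change against Fracture of 2.04 (SE 0.78, adjusted p = 0.887, edgeR). Together, 8 platelet and megakaryocyte markers were at 8.27 to 14.7 CPM in Fracture and 8.76 to 25.05 CPM in Fracture+PDX.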

How the data were processed

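RNA-seq libraries were made by the authors from poly(A) RNA of L3–L5 DRG with a stranded kit and sequenced on an Illumina NovaSeq. The submitters' processing notes name cutadapt 1.10, FastQC, HISAT2, StringTie and mm10. The annotation release and whether counting used strand are not given in the sources used here. The authors deposited whole-number counts per gene and FPKM for the same genes, without pooling mice. Columns named Con were taken as Sham, the only group left. Among genes with 1 transcript, the deposited counts pile up at multiples of 4 (3258 values of 4 against 1091 of 3 and 680 of 5), so 1 read pair may be worth about 4 counts and low counts are fewer fragments than they seem.

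The analysis of counts used edgeR 4.0.16 under R 4.3.3 (filterByExpr with a minimum count of 10 and total of 15, TMM, robust quasi-likelihood fits, sex and group in the model, 12 libraries per comparison), with Benjamini-Hochberg adjustment over all genes tested and a threshold of 0.05. CPM uses TMM-scaled library sizes. Exact permutation tests used all 924 labelings of 6 against 6 mice and log2 CPM with a prior count of 2. Intervals are 95% intervals of the fitted log2 fold change. Correlations used 100000 permutations within groups. The fits were tested on simulated data. DESeq2 1.42.0 and limma 3.58.1 on log2(FPKM + 1) and log2(FPKM + 0.1) were alternatives. Of the 57 members, 43 were tested in all comparisons and 12 in none. Named in the text were members with an adjusted p under 0.05 in a comparison, the 5 with the smallest p in each, the 6 ligands and 6 receptors with the highest FPKM, the partners of these above the floor, and Cxcr2, Ccr1 and Ccr9. The gene family, whose members follow from their symbols, and the lists were chosen with earlier results of these data known, and Cxcl9, Cxcl10, Cxcl11 and Ccl19 were named after their values had been seen. Each group is 6 separate mice, and p-values measure the spread between them. Values of 1 member, which stays in the counts over members, and the result of 1 gene list are not reported here. The study’s other experiments were not analysed here.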

Additional observations from a re-analysis of the deposited data

Results flagged for a closer look

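A library was marked where its gap to the nearest other library of its group of 6 exceeded Dixon's 95% critical share of the group's range, which happens by chance in about 1 in 20 groups. Over 18 members and 3 groups, 54 groups were examined and 8 were marked. In Sham, male 1 was highest in Ccl22 (1.25 CPM, next 0.299 CPM) and in Cxcl14 (7.73 CPM, next 4.81 CPM). In Fracture, female 1 was highest in Ccl22 (0.368 CPM, next 0.242 CPM) and in Cxcr2 (2.56 CPM, next 1.55 CPM) and lowest in Ccr9 (0.0525 CPM, next 0.114 CPM). Fracture female 3 was highest in Ccl27a (12.5 CPM, next 9.25 CPM). In Fracture+PDX, male 1 was highest in Cxcr4 (18.1 CPM, next 12.4 CPM) and in Cxcr5 (0.633 CPM, next 0.257 CPM). Fracture female 1 also had the highest neutrophil marker sum of its group (220 CPM), and Fracture+PDX male 1 the highest of its group (537 CPM), and the part of these in the marked values was not tested.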

How the results depend on the processing

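The number of members called lower in Fracture against Sham was 2 in the reported fit, 4 with DESeq2, 0 with limma on log2(FPKM + 1) and 0 with limma on log2(FPKM + 0.1), and between 1 and 2 with each library left out. It was 3 when at least 10 counts were required in every library, with Cxcl14 added. Members called higher were 0 in every fit of the 3 comparisons, members called lower were 0 in every fit of Fracture+PDX against Fracture, and Ccl11 was the 1 member called lower in every fit of Fracture+PDX against Sham. Of 18 named fold changes under 28 alternatives, 374 of 394 values kept direction and side of the threshold, 14 lost the call, 6 gained it and 0 changed sign. Fold changes outside these 18, such as that of Ccl6 with PDX, could change sign. The mouse numbers in the titles did not pair the libraries (correlations of deviations from -0.071 to 0.126). With the numbers as a replicate block, 2 members were called lower in Fracture against Sham, now Cxcl14 (adjusted p = 0.0392) and Cxcr2 (adjusted p = 0.0311), with Ccl11 at 0.0539, and the members called in the other comparisons did not change. The count of all genes called in Fracture against Sham was 603 in the reported fit, 1476 with DESeq2, 118 with the block and 121 and 177 with limma, and in Fracture+PDX against Sham it was 925, 1579, 486, and 347 and 457. Leaving out 1 library gave 213 to 710 and 498 to 1008. With cuts on CPM in place of FPKM, 2 members were at 10 and over and 4 were under 0.1. With the Sham libraries alone, 1 member was at 10 and over. With the floor at 12 counts, chosen after seeing the data because 1 read pair may be worth 4 counts, 17 members were at the floor and 4 under 0.1. Dividing the counts by 4, also chosen after seeing the data, left the members called as they were. At these depths members with few counts, such as Ccr9, Cxcr5 and Xcr1, had standard errors of 0.43 and above on the log2 scale in Fracture+PDX against Fracture.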
